A study of Mus musculus with 16 samples.

Results

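The genes described here are 41 mouse interferon-stimulated and RNA-sensing genes, taken by symbol from a list of names. That list was chosen with earlier results of these data known, so the shares called below describe these genes and are not an independent test. All 41 were among the 20325 gene names shared by 12 of the RNA libraries, and 40 had a row in the library of fibroblasts given Oct4, where Mx2 did not. By role they fall into 5 sensors (Ddx58, Ifih1, Dhx58, Tlr3 and Zbp1), 5 enzymes that RNA activates or that edit RNA (Oas1a, Oas2, Oas3, Eif2ak2 and Adar), 7 signal transducers and regulators (Irf1, Irf3, Irf7, Irf9, Stat2, Trim25 and Usp18) and 24 effectors.

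The study asked how the transcription factor c-Jun acts on cell identity, and why its dominant-negative form c-JunDN and the related factor Jdp2 can stand in for Oct4 in reprogramming. It holds 16 samples, of which 13 are RNA libraries, with 1 library in each group. All came from OG2 mice of a mixed 129SVJ, C57B6 and CBA background. The 6 sets of embryonic fibroblasts (MEF) at passage 2 were wild type (WT) or overexpressed DR, c-Jun, c-JunDN, Jdp2 or Oct4. DR is not spelled out in the labels and served here as the control for the added factors. Another 4 MEF cultures received virus for Klf4, Sox2 and c-Myc (KSM) together with DR, Oct4, c-JunDN or Jdp2, and RNA was taken on day 3. Embryonic stem cells (ESC) at passage 5 were WT, or carried c-Jun under a doxycycline-inducible promoter (TetOn) and were sampled at 36 h with or without doxycycline. The labels do not say whether the TetOn line was a single clone, how the MEF factors were delivered, or how long after delivery the MEF were harvested. Nothing was replicated within a group, so every difference below is between 2 libraries, no p-value is given, and intervals cover counting error alone.

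Cells detect foreign or misplaced RNA through cytosolic helicases, such as RIG-I (Ddx58) and MDA5 (Ifih1), and through endosomal Tlr3. These signal to the factors Irf3 and Irf7, which switch on type I interferon genes. Secreted interferon acts through its receptor on a complex that contains Stat2 and Irf9 and binds an interferon-stimulated response element (ISRE) in the promoters of many genes. Fibroblasts carry the whole route, whereas pluripotent cells are known for a weak interferon response.

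Total expected counts were 12173100 in WT ESC and 21415021 in WT MEF, and ranged from 1896522 (Oct4 MEF) to 3440917 in the other libraries. A floor of 3 counts therefore corresponded to 0.195 scaled counts per 1000000 (CPM) in WT MEF and to between 0.908 and 1.61 CPM outside the WT libraries. The added factors were seen where the labels put them. Jun reached 12881 CPM in c-Jun MEF, 4202 in c-JunDN MEF and 2175 in induced ESC, against 94.4 with DR and 23.2 without doxycycline. Jdp2 reached 7740.3 CPM in Jdp2 MEF against 82.0 with DR, and Pou5f1 (Oct4) 10382 CPM in Oct4 MEF against 2.58. The 9 fibroblast markers summed to between 11785 and 57337 CPM in the 6 MEF libraries, and the 8 ESC markers to 5578 CPM in WT ESC, 7126 without doxycycline and 1334 with it, so both labelled cell types carried their markers. The sum for WT ESC also held 1312 CPM of fibroblast markers, against 27.7 CPM in the uninduced line.

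The promoters of 3 effectors with large changes are shown next, with those of 2 transducers, as examples that do not stand for their roles. Each sequence is the 160 bases before the start of transcription in RefSeq (GRCm38.p6), read 5′ to 3′ along the gene's strand, and capitals mark matches to the ISRE core, GAAANNGAAA on either strand. The windows lie at chr4:156200819-156200978 on the minus strand for Isg15, chr19:34640729-34640888 on the plus strand for Ifit1, chr19:34583369-34583528 on the plus strand for Ifit3, chr7:141266425-141266584 on the minus strand for Irf7 and chr7:44997488-44997647 on the plus strand for Irf3.
Isg15: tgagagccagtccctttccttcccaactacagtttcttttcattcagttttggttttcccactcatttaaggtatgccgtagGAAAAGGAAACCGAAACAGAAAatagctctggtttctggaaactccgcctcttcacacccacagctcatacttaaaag
Ifit1: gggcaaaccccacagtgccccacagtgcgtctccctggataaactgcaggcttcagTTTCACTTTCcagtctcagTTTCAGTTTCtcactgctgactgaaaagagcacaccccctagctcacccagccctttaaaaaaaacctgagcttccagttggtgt
Ifit3: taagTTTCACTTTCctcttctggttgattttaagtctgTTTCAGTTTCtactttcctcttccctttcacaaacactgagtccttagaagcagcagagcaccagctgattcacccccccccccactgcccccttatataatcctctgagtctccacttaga
Irf7: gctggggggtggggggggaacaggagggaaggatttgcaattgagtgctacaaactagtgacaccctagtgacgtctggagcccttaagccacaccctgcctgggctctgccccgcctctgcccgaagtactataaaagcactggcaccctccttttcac
Irf3: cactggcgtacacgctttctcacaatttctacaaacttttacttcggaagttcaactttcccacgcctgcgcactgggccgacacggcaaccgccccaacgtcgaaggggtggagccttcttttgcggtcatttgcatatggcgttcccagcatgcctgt

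Isg15 held 3 overlapping matches that begin 78, 72 and 66 bases before its start. Ifit1 held 2 matches, which begin 104 and 85 bases before the start, and Ifit3 held 2, which begin 156 and 122 bases before it, all on the reverse strand as TTTCNNTTTC. The windows of Irf7 and Irf3 held none, which says only that these letters are not in these windows. RefSeq's promoter table, which spans 250 bases before to 50 after each start, held 32 of the 41 genes. Of these, 13 (40.6%) contained the ISRE core, against 3.99% of the 27025 genes in the table, and 11 (34.4%) contained it followed by C, against 0.944%. Effectors without the core included Oasl2, which was among the most changed, and Herc6, Ifit2, Oasl1, Cmpk2 and Ifi44. The transducer Stat2 contained it. The letters TTCNNNGAA, the gamma-activated site, which can overlap the ISRE, occurred in 7 (21.9%) against 9.55%. TGACTCA or its reverse TGAGTCA, the site that AP-1 factors such as c-Jun bind, occurred in 5 (15.6%; Oas3, Rsad2, Ifi35, Xaf1 and Gbp2) against 5.95%. These are matches of letters, not measured binding.

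MEF given DR carried far higher levels of these genes than WT MEF. The members summed to 687 CPM in WT MEF and to 4019 CPM with DR. Of 41 members, 39 were called higher and 0 lower, meaning that log2(CPM + 1) differed by 2-fold or more and that the gene reached 5 CPM on either side. Over all 11096 genes measured, 9.81% were higher and 10.5% lower. The median log2 change was 2.96 over the members and -0.10 over all genes, and with total-count scaling the latter moved to 0.30 and the former to 3.05, with 40 members called. All 5 sensors, all 5 enzymes and all 24 effectors were called, and the 2 exceptions, Irf3 and Trim25, were both transducers. WT MEF was also sequenced more deeply, at 21415021 expected counts against 2094306 with DR, and the part of that depth in the difference was not tested.

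**Figure D1:**
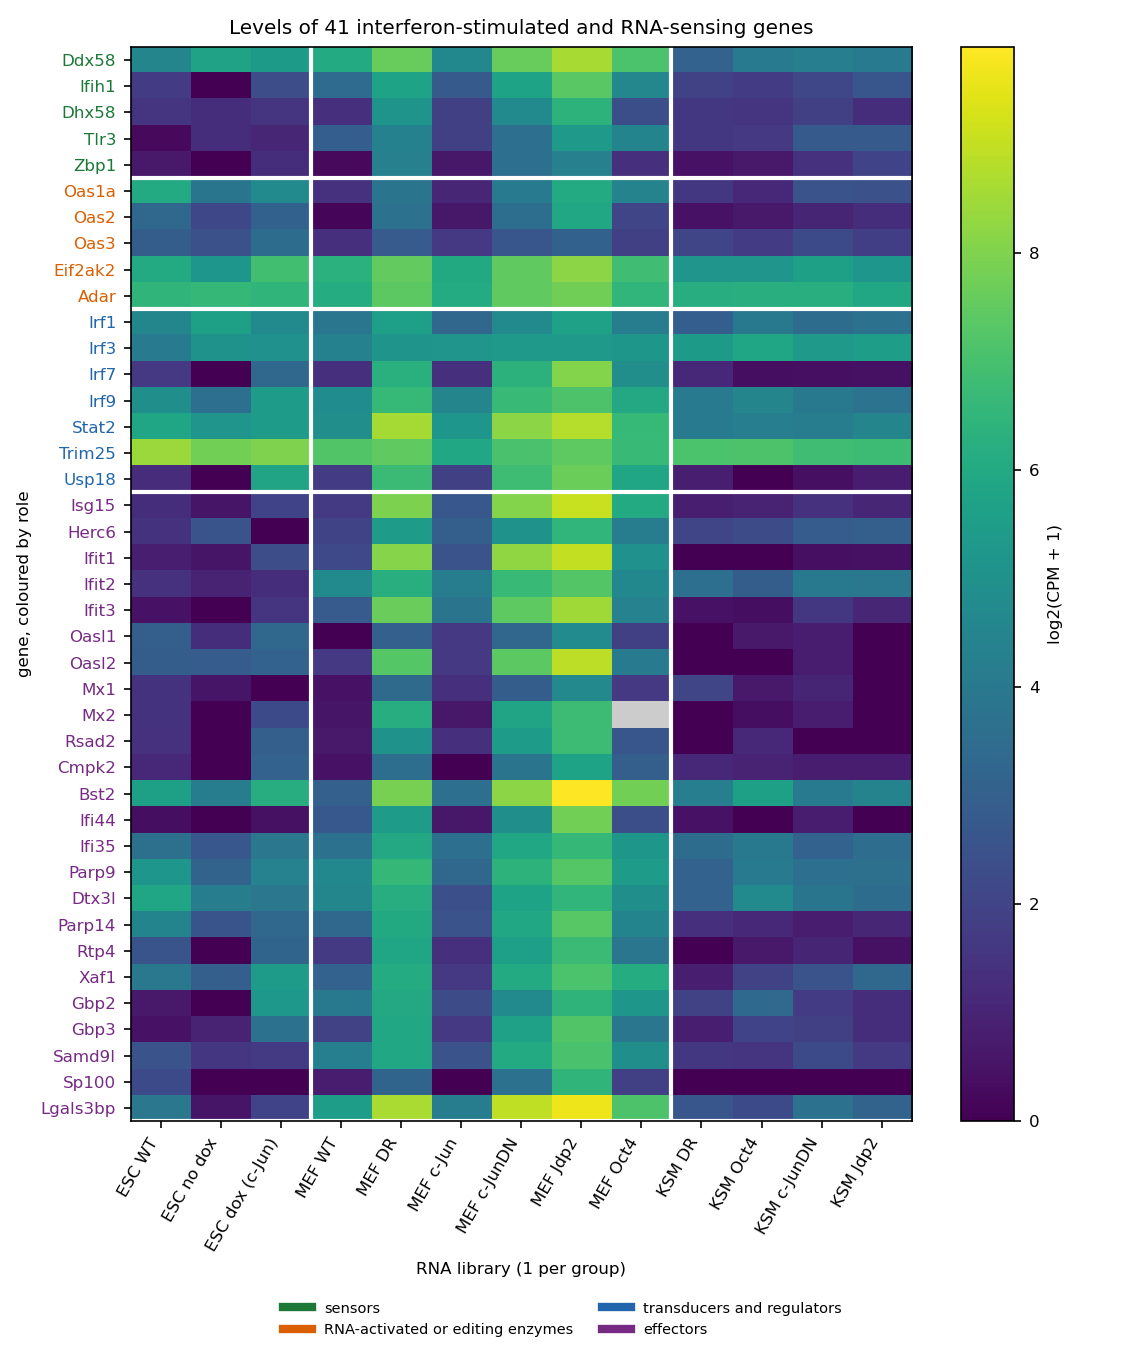
Heat map of log2(CPM + 1) of the 41 genes (rows, coloured by role) in the 13 RNA libraries (columns, 1 per group), with white lines between roles and between ESC, MEF and KSM libraries. The grey cell is Mx2 with Oct4, and the bright columns are DR, c-JunDN and Jdp2 MEF, while WT and c-Jun MEF and the 4 KSM libraries are dark for most effectors.

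Among the sensors, Ddx58 encodes RIG-I, the helicase that binds RNA ends. Its level was 65.4 in WT MEF, 193 with DR, 23.7 with c-Jun, 192 with c-JunDN, 389.6 with Jdp2 and 137 with Oct4. Ifih1, which encodes MDA5 and binds long double-stranded RNA, stood at 10.0 in WT MEF, 53.1 with DR, 5.92 with c-Jun, 52.6 with c-JunDN, 163 with Jdp2 and 22.9 with Oct4. Both were lowest with c-Jun and highest with Jdp2, and their levels with DR and c-JunDN were nearly equal.

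Dhx58 encodes LGP2, a helicase that modulates the other 2. Its level was 1.5 in WT MEF, 34.0 with DR, 2.69 with c-Jun, 25.2 with c-JunDN, 82.4 with Jdp2 and 4.26 with Oct4. Tlr3, the endosomal receptor for double-stranded RNA, stood at 6.77 in WT MEF, 19.6 with DR, 2.69 with c-Jun, 11.3 with c-JunDN, 40.1 with Jdp2 and 21.3 with Oct4. Zbp1, which senses Z-form nucleic acid and can trigger cell death, had 0.195 in WT MEF, 19.1 with DR, 0.538 with c-Jun, 11.3 with c-JunDN, 18.7 with Jdp2 and 1.60 with Oct4. Zbp1 was the only sensor with its highest level in DR MEF, and its 3 counts in WT MEF put the DR level 97.7-fold higher (counting interval 30.9 to 495). For Ddx58 the DR level was 2.95-fold higher (counting interval 2.61 to 3.32). Tlr3 was the only sensor whose level with Oct4 exceeded that with DR, at a log2 difference of 0.12, under the 2-fold mark.

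**Figure D2:**
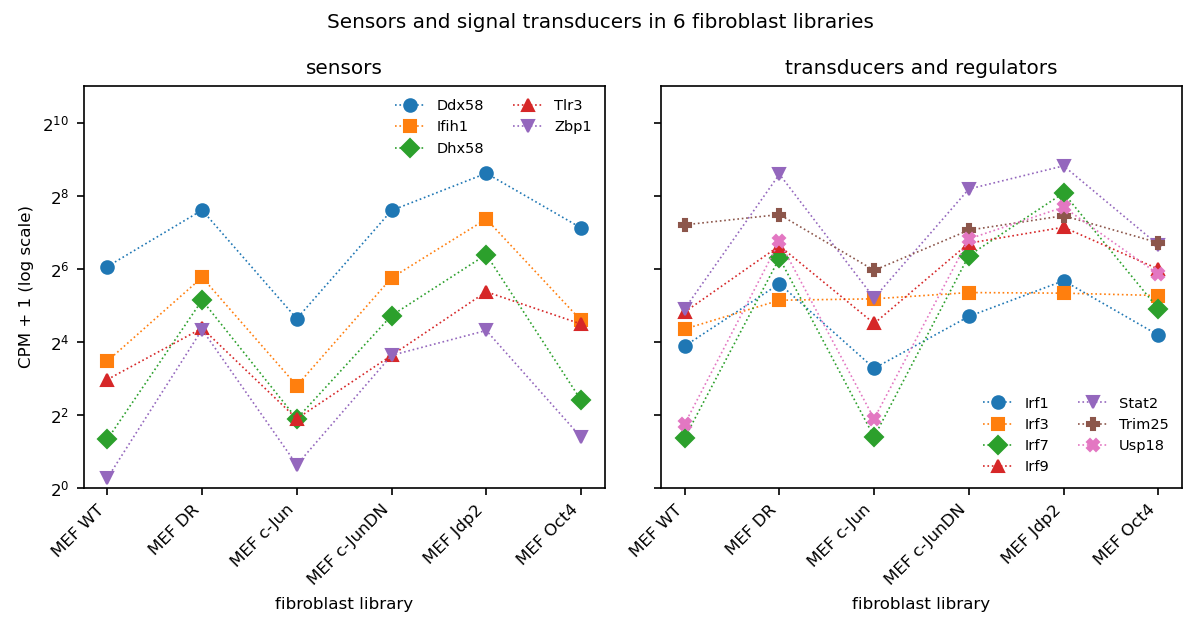
Level (CPM + 1, log scale) of the 5 sensors and the 7 transducers in the 6 MEF libraries, 1 symbol per gene, with dotted lines joining a gene's values for reading only. Irf7 and Usp18 span the widest range, while Irf3 stays between 19.3 and 39.5 CPM and Trim25 between 60.8 and 177 CPM.

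Of the enzymes, the oligoadenylate synthetases make a second messenger that activates RNase L when they bind double-stranded RNA. Oas1a had 1.63 in WT MEF, 12.9 with DR, 1.08 with c-Jun, 16.5 with c-JunDN, 64.8 with Jdp2 and 20.2 with Oct4. Oas2 had 0.130 in WT MEF, 12.4 with DR, 0.538 with c-Jun, 10.9 with c-JunDN, 60.5 with Jdp2 and 3.20 with Oct4. Oas3 had 1.5 in WT MEF, 6.19 with DR, 2.15 with c-Jun, 5.21 with c-JunDN, 7.49 with Jdp2 and 2.66 with Oct4. Oas2 and Oas1a stood apart in Jdp2 MEF, while Oas3 stayed under 8 CPM in every MEF library and its direction rests on few counts (12 with DR and 4 with c-Jun).

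Eif2ak2 encodes PKR, the kinase that stops translation on binding double-stranded RNA. It had 79.3 in WT MEF, 182 with DR, 63.5 with c-Jun, 179.9 with c-JunDN, 286 with Jdp2 and 115 with Oct4. Adar, which edits adenosine in double-stranded RNA and keeps the sensors from reading the cell's own transcripts, had 68.3 in WT MEF, 168 with DR, 66.7 with c-Jun, 178 with c-JunDN, 212 with Jdp2 and 91.1 with Oct4. Both were already well expressed in WT MEF, and theirs were the smallest changes among the called members, with log2 changes of 1.18 and 1.29 from WT to DR.

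Of the transducers, 5 were called from WT to DR MEF and 2 were not. Irf7, which amplifies the type I interferon response and is itself interferon-induced, had 1.56 in WT MEF, 76.8 with DR, 1.61 with c-Jun, 80.8 with c-JunDN, 268 with Jdp2 and 28.8 with Oct4. Usp18, the protease that takes Isg15 off its targets and dampens the receptor, had 2.34 in WT MEF, 106 with DR, 2.69 with c-Jun, 111 with c-JunDN, 204 with Jdp2 and 56.5 with Oct4. The DR level was 49.2-fold higher (counting interval 31.8 to 79.2) than in WT MEF for Irf7 and 45.3-fold higher (counting interval 31.7 to 66.5) for Usp18.

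Stat2 and Irf9 are subunits of the complex that binds the ISRE. Stat2 had 28.8 in WT MEF, 383 with DR, 35.5 with c-Jun, 288 with c-JunDN, 449 with Jdp2 and 99.1 with Oct4. Irf9 had 27.0 in WT MEF, 97.5 with DR, 21.5 with c-Jun, 103 with c-JunDN, 139 with Jdp2 and 62.3 with Oct4. Irf1, a factor that interferon-gamma induces strongly, had 13.7 in WT MEF, 46.9 with DR, 8.61 with c-Jun, 24.8 with c-JunDN, 49.8 with Jdp2 and 17.1 with Oct4. These 3 also rose from WT to DR MEF and were lower again with c-Jun, and Irf1 was the transducer whose level with c-JunDN lay furthest below DR, at a log2 change of -0.90.

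Irf3, the constitutive factor that the sensors activate by phosphorylation, had 19.3 in WT MEF, 34.0 with DR, 35.0 with c-Jun, 39.5 with c-JunDN, 39.1 with Jdp2 and 37.3 with Oct4. Trim25, the ligase that acts on RIG-I, had 146 in WT MEF, 177 with DR, 60.8 with c-Jun, 132 with c-JunDN, 173 with Jdp2 and 103 with Oct4. Irf3 was 1.77-fold higher (counting interval 1.33 to 2.31) with DR than in WT MEF and Trim25 1.22-fold higher (counting interval 1.08 to 1.36), neither reaching 2-fold on the log2(CPM + 1) scale. With total-count scaling the Irf3 change was 1.18 and passed it.

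Here and below, members are ranked by the change of log2(CPM + 1), which places genes of low level lower than their plain ratio of CPM does. On that scale the 3 effectors with the largest rise from WT to DR MEF were Isg15, Ifit1 and Oasl2. Isg15, a ubiquitin-like protein that is joined to other proteins, had 2.21 in WT MEF, 243 with DR, 5.38 with c-Jun, 264 with c-JunDN, 531 with Jdp2 and 65.5 with Oct4. Ifit1, which binds RNA caps that lack 2′-O-methylation, had 3.58 in WT MEF, 274 with DR, 4.84 with c-Jun, 309 with c-JunDN, 503 with Jdp2 and 31.4 with Oct4. Oasl2, an oligoadenylate synthetase-like protein, had 2.08 in WT MEF, 155 with DR, 2.15 with c-Jun, 168 with c-JunDN, 477 with Jdp2 and 15.5 with Oct4. In each case the levels with DR, c-JunDN and Jdp2 were more than 10 times those in WT MEF and with c-Jun, and the Oct4 level lay between. The DR level was 109.7-fold higher (counting interval 77.4 to 160.4) than in WT MEF for Isg15, 76.6-fold higher (counting interval 58.0 to 103) for Ifit1 and 74.5-fold higher (counting interval 51.7 to 111) for Oasl2. By the plain ratio Mx2 came first, from 7 counts in WT MEF, at 156-fold higher (counting interval 73.8 to 396).

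The 2 effectors with the smallest rise were Ifit2 and Dtx3l. Ifit2, another RNA-binding IFIT protein, had 24.8 in WT MEF, 72.2 with DR, 16.7 with c-Jun, 101 with c-JunDN, 149.9 with Jdp2 and 23.4 with Oct4. Dtx3l, a ubiquitin ligase that pairs with Parp9, had 22.2 in WT MEF, 71.2 with DR, 4.30 with c-Jun, 52.1 with c-JunDN, 89.4 with Jdp2 and 29.8 with Oct4. Both were expressed above 20 CPM in WT MEF. For the other 19 effectors the log2 change from WT to DR ranged from 1.68 (Samd9l, a translation-restricting antiviral factor) to 5.63 (Mx2), and all 19 were called higher. Oasl1 had 0 counts in WT MEF, and its DR level was at least 37.0-fold higher. RefSeq classes Mx1 and Mx2 as transcribed pseudogenes in this mouse build. Ifit3 has a near-identical neighbour, Ifit3b (listed as I830012O16Rik), which had 0.911 CPM in WT MEF and 95.4 with DR, so how reads divided between the 2 is uncertain, as it is for the Ifit1, Oas1a and Gbp2 relatives. Those relatives did not all rise with DR. Gbp2b (listed as Gbp1) had 5.27 CPM in WT MEF and 0.516 with DR, and Oas1g 0.0651 and 0. The Ifit1 relatives Ifit1bl1 and Ifit1bl2 had 0.130 and 1.04 CPM in WT MEF and 8.77 and 2.06 with DR.

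Per length, the leading members also differed between libraries. In TPM, which scale transcripts per 1000000, the highest 3 with DR were Isg15 (671), Bst2 (635) and Lgals3bp (378). In WT MEF they were Trim25 (52.4), Lgals3bp (40.7) and Eif2ak2 (36.7). Bst2, which tethers budding virus to the cell, led the Jdp2 library at 2736 TPM.

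**Figure D3:**
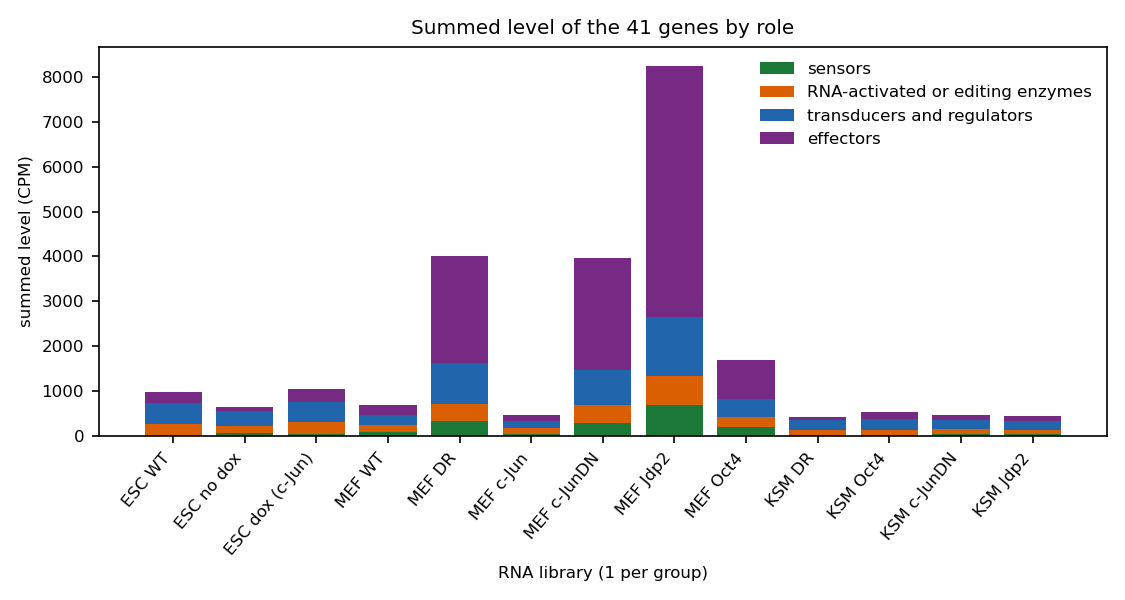
Summed CPM of the 41 genes in each RNA library (40 with Oct4 in MEF), stacked by role from 0. The sums are 4019 with DR, 3968 with c-JunDN and 8260 with Jdp2 in MEF, against 687 in WT MEF, 463 with c-Jun and between 422 and 526 in the KSM libraries.

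MEF given c-Jun carried these genes at low levels. Against DR, 40 of the 41 members were lower and 0 higher, where 9.7% of the 11284 genes measured were lower and 8.22% higher. The median log2 change was -3.39, or -3.26 with the 2 members that had 0 counts with c-Jun (Cmpk2 and Sp100) set at their bound, against 0.02 over all genes. The largest on the log2(CPM + 1) scale were Oasl2 (72.1-fold lower (counting interval 27.9 to 266)), Ifit1 (56.7-fold lower (counting interval 29.6 to 125)) and Mx2 (132-fold lower (counting interval 23.3 to 5261), from 1 count with c-Jun). By the plain ratio Mx2 came first and Ifi44, also from 1 count, next (80.5-fold lower (counting interval 14.1 to 3217)). Isg15 was 45.1-fold lower (counting interval 24.3 to 94.7) and Ddx58 8.15-fold lower (counting interval 5.95 to 11.4). Irf3 was the 1 exception, at 35.0 CPM with c-Jun and 34.0 with DR. Cmpk2, a mitochondrial nucleotide kinase, was at least 6.71-fold lower, and Sp100, a nuclear-body protein, at least 5.11-fold lower.

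Set against WT MEF instead, the c-Jun library was much closer. Of 24 members measured, 0 were higher and 10 lower, where 11.4% of all genes were higher and 13.5% lower. Dtx3l had 4.30 against 22.2 CPM and was 5.16-fold lower (counting interval 2.59 to 12.0). Ifi44, an effector of little known function, was 10.3-fold lower (counting interval 1.80 to 411), from 1 count with c-Jun. Gbp2, a guanylate-binding GTPase, was 3.97-fold lower (counting interval 1.90 to 10.00). The median was -0.64 over the 24 and -0.29 over all 41 without the filter on low values, against -0.07 over all genes. The 17 members under 5 CPM in both libraries include Irf7, Usp18, Ifit1 and Oasl2. Of the 40 members in all 6 MEF libraries, 23 were lowest with c-Jun and 17 in WT MEF, and the shares over all genes were not computed.

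The c-JunDN library was close to DR. Against DR, 1 of 41 members was lower (Gbp2, 2.43-fold lower (counting interval 1.77 to 3.38)) and 0 higher, where 2.85% of all genes were lower and 3.28% higher, and the median was -0.06. After Gbp2 the largest changes were those of Irf1 and Tlr3 (-0.74). Against WT MEF, 36 of 41 were higher and 0 lower, with a median of 2.93, where 10.6% of all genes were higher and 11.3% lower. The largest rises over WT MEF were those of Isg15 (6.37), Ifit1 (6.08) and Oasl2 (5.77). This comparison and that of DR with WT MEF share the WT library.

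Jdp2 MEF carried the highest levels of all. Of the 40 members in all 6 MEF libraries, 37 were highest with Jdp2, 2 with DR (Zbp1 and Trim25) and 1 with c-JunDN (Irf3). The same order over all genes was not computed. Against DR, 21 of 41 were higher and 0 lower, where 5.98% of all genes were higher and 6.38% lower, and the median was 1.01. The largest changes were those of Sp100, 10.6-fold higher (counting interval 6.36 to 19.1), Ifi44, 5.10-fold higher (counting interval 4.03 to 6.53), and Oas1a, 5.02-fold higher (counting interval 3.25 to 8.07). Sp100 had 0.716 in WT MEF, 8.25 with DR, 0 with c-Jun, 12.2 with c-JunDN, 87.8 with Jdp2 and 2.66 with Oct4. Ifi44 had 5.53 in WT MEF, 43.3 with DR, 0.538 with c-Jun, 29.1 with c-JunDN, 221 with Jdp2 and 4.26 with Oct4. By role, 3 of 5 sensors, 2 of 5 enzymes, 1 of 7 transducers (Irf7) and 15 of 24 effectors were called. The interval of the ratio lay wholly past 2-fold for 12 of the 21.

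Jdp2 and c-JunDN were also set side by side directly. Against c-JunDN, 25 of 41 members were higher and 0 lower, where 4.9% of all genes were higher and 5.48% lower, with a median of 1.05. Ifi44 was 7.59-fold higher (counting interval 5.85 to 9.98), Sp100 7.22-fold higher (counting interval 4.81 to 11.2) and Oas2 5.57-fold higher (counting interval 3.59 to 8.97). Gbp2, the member that was lower with c-JunDN than with DR, had 25.6 CPM with c-JunDN and 86.7 with Jdp2. Against WT MEF, 39 of 41 were higher and 0 lower with Jdp2, at a median of 4.17, where 12.2% of all genes were higher and 14.4% lower, and Isg15 reached 240.1-fold higher (counting interval 171 to 349) than in WT MEF, Oasl2 229-fold higher (counting interval 161 to 337) and Bst2 132-fold higher (counting interval 109 to 162).

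Oct4 MEF lay between WT and DR for most members. Against DR, 24 of 40 members were lower and 0 higher, where 10.2% of all genes were lower and 11.6% higher, and the median was -1.24. Ifit3 was 10.1-fold lower (counting interval 7.21 to 14.6), Oasl2 10.0-fold lower (counting interval 6.85 to 15.3) and Ifit1 8.73-fold lower (counting interval 6.66 to 11.6). Against WT MEF the direction turned, with 23 of 33 measured higher and 0 lower at a median of 1.54, or 1.39 over all 40 without the filter, where 14.6% of all genes were higher and 14.8% lower. The largest of these were Bst2 (30.8-fold higher (counting interval 24.9 to 38.3)), Isg15 (29.6-fold higher (counting interval 20.1 to 44.7)) and Usp18 (24.1-fold higher (counting interval 16.4 to 36.2)). The level was above that with DR for 4 members, none of them called. Oas1a had 20.2 CPM with Oct4 and 12.9 with DR, Tlr3 21.3 and 19.6, Irf3 37.3 and 34.0, and Xaf1, a pro-apoptotic factor, 69.3 and 67.6. With Oct4 the level was below that in WT MEF for 3 members, none of them called. Trim25 had 103 CPM with Oct4 and 146 in WT MEF, Ifit2 23.4 and 24.8, and Ifi44 4.26 and 5.53. The Oct4 MEF library alone was quantified on Ensembl gene models, and the part of that difference was not tested. In TPM, 19 members were lower than with DR and the median was -0.84, while the median of all genes moved from 0.01 to 0.20.

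**Figure D4:**
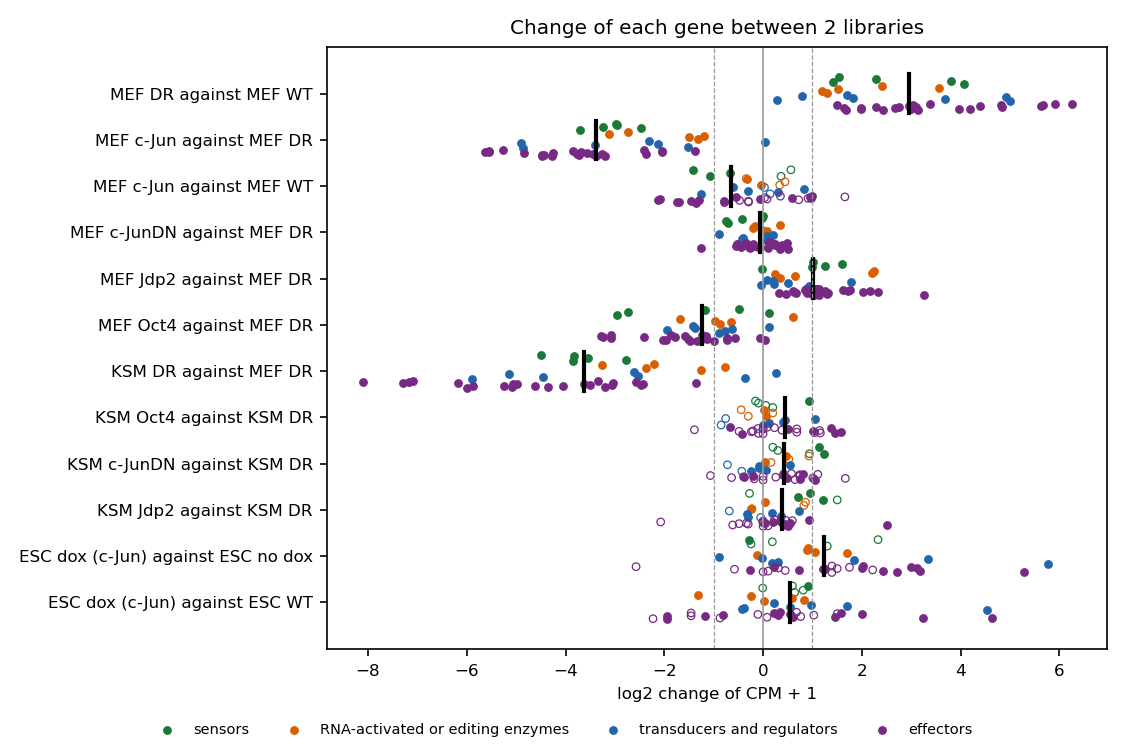
Log2 change of CPM + 1 of each gene (points, coloured by role) between 2 libraries, with filled points for genes at 5 CPM or more in 1 of the 2, open points below that, a black bar at the median of the filled points and dashed lines at 2-fold. The medians run from 2.96 for DR against WT MEF to -3.39 for c-Jun against DR and -3.62 for KSM with DR against DR alone, while c-JunDN against DR sits at -0.06.

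The size of the change was set beside the ISRE match for the 32 genes with a promoter. From WT to DR MEF the median log2 change was 3.69 over the 13 genes with the core (range 1.18 to 6.25) and 2.30 over the 19 without it (0.28 to 5.66). From DR to c-Jun MEF the medians were -3.68 and -2.48. For Jdp2 against c-JunDN they were 1.05 and 1.02, and for Oct4 against DR -1.18 and -1.17. The ranges of the genes with and without the core overlapped in all 4 comparisons, and Irf7, with no match in its window, rose more from WT to DR than 11 of the 13 genes that had one.

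The pathway genes outside the 41 were read from a list of 62 names. The 8 interferon genes on it were not detected, and other interferon genes were not read. Ifnb1, Ifna1, Ifna2, Ifna4, Ifna5, Ifng, Il28a and Il28b rounded to 0 counts in all 13 libraries, which allows up to 1.61 CPM at the shallowest. Of the receptors, 0 of 5 measured were called from WT to DR MEF or from DR to c-Jun, the largest changes being those of Ifngr1 (-0.84) and Ifnar1 (-0.62). Against DR, Ifngr1 was called higher with Oct4 (139 against 26.3 CPM) and Ifngr2 with Jdp2 (186 against 79.4 CPM).

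Of the 8 adapters and kinases below the sensors, 0 were higher from WT to DR MEF and 1, Traf6, was lower (-1.0), followed by Tbk1, the kinase of Irf3, at 0.73. Against DR, the c-Jun library was lower in 2 of the 8, Tmem173 (STING, -1.62) and Myd88 (-1.60). Of 6 inhibitors, Socs1 and Socs3, which block receptor kinases, were higher with DR than in WT MEF (2.59 and 2.21). With c-Jun, Socs1 had 25.3 CPM against 16.0 with DR and was not called.

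The interferon-stimulated genes outside the 41 moved in the same direction as the members. From WT to DR MEF, 20 of 24 measured were higher and 0 lower, where 9.81% of all genes were higher and 10.5% lower. The median was 2.01, and Iigp1 (4.93) and Igtp (4.91), both immunity-related GTPases, led. With c-Jun against DR, 20 of 24 were lower and 0 higher, at a median of -2.13, where 9.7% of all genes were lower and 8.22% higher. With Jdp2 against DR, 10 of 25 were higher and 0 lower, at 0.79, where 5.98% of all genes were higher and 6.38% lower. With c-JunDN against DR 1 of 24, Ifi203, was lower, where 2.85% of all genes were. Oct4 against DR gave 13 lower and 2 higher of 25, at -1.06, where 10.2% of all genes were lower and 11.6% higher. The 2 higher were Ifi203 and Ifi27l2a, which had 54.4 CPM with Oct4 and 2.06 with DR.

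Markers of other cell types were read in the same libraries. The 12 macrophage markers summed to 81.9 CPM in WT MEF, 98.5 with DR, 146 with c-Jun, 204 with c-JunDN, 41.7 with Jdp2 and 327 with Oct4. Their sum was lowest with Jdp2. Of the 146 CPM with c-Jun, 78.6 were Csf1r and 29.1 were Cd14, the 2 markers called higher than with DR (4.64 and 6.70 CPM). Lyz2 was called lower with c-Jun, at 24.8 against 65.0 CPM. C1qa, C1qb, C1qc, Emr1, Ptprc and Fcer1g, each under 5 CPM in both, were also at lower levels with c-Jun than with DR. These rest on few counts, at most 8 with DR (C1qa). Levels of Cd68 (5.38 against 5.16 CPM), Tyrobp (1.61 against 1.03) and Aif1 (3.23 against 0.516) were higher with c-Jun than with DR, without a call. All 12 had counts in 5 of the libraries, and Ptprc and Fcer1g were at 0 with c-Jun. The 6 lymphocyte and plasmacytoid dendritic cell markers summed to at most 0.516 CPM in MEF. The 9 fibroblast markers summed to 57337 CPM in WT MEF, 32963 with DR, 14198 with c-Jun, 30348 with c-JunDN, 25377 with Jdp2 and 11785 with Oct4. Against DR, 6 of the 9 were lower with c-Jun (median -1.36) and 6 lower and 1 higher with Oct4 (-1.42). The part of both marker lists in the member levels was not tested. In bulk RNA, fewer responding cells and less RNA per cell cannot be told apart.

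The MEF cultures given KSM and DR lacked the high levels seen with DR alone. The members summed to 422 CPM with KSM and DR, and 38 of 41 were lower and 0 higher than in DR MEF, where 19.9% of all genes were lower and 18.7% higher. The median was -3.62, the same with the 7 members at 0 counts set at their bound, against 0.07 over all genes. Ifit1 had 0 counts against 532 and was at least 228-fold lower, Oasl2 at least 129-fold lower, and Ifit3, from 1 count, 498-fold lower (counting interval 88.8 to 19713). Irf3 (40.9 against 34.0 CPM), Trim25 (138 against 177) and Oas3 (3.21 against 6.19) were the members not called. Of the other interferon-stimulated genes, 22 of 24 were lower, at a median of -2.43. The fibroblast markers moved with this change. All 9 were lower with KSM and DR than with DR alone (median -4.54), and their sum was 1374 CPM against 32963. It was 1476 with KSM and Oct4, 1667 with c-JunDN and 2225 with Jdp2. The macrophage markers summed to 20 CPM with KSM and DR against 98.5 with DR alone, and 9 of the 12 were at 0 counts. The part of either list in the member levels was not tested. Harvest time for DR MEF is not given, so culture time and the KSM factors cannot be told apart here.

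Against WT MEF, the KSM DR library had 14 of 22 measured members lower and 2 higher, where 22.1% of all genes were lower and 19.4% higher. All 9 fibroblast markers were lower in that comparison too (median -4.97). The median was -1.40 over the 22 and -0.83 over all 41. Ddx58 was 8.59-fold lower (counting interval 5.47 to 14.3), Lgals3bp, a secreted glycoprotein, 8.46-fold lower (counting interval 4.91 to 16.0) and Samd9l 9.03-fold lower (counting interval 3.82 to 28.0). The 2 higher were Irf3 (2.12-fold higher (counting interval 1.68 to 2.67)) and Bst2 (2.50-fold higher (counting interval 1.73 to 3.56)). With total-count scaling 8 were lower, and the median of all genes moved from 0.02 to 0.56.

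Within KSM, the differences with each added factor were small, and the factors themselves were lower than in MEF without KSM. Pou5f1 had 1860 CPM with KSM and Oct4 against 10382 in Oct4 MEF. Jun had 378 CPM with KSM and c-JunDN against 4202 in c-JunDN MEF. Jdp2 had 403 CPM with KSM and Jdp2 against 7740 in Jdp2 MEF. The part of the factor levels in the member levels was not tested. With Oct4 against DR, 5 of 15 measured members were higher and 0 lower, where 4.77% of all genes were higher and 6.8% lower. Dtx3l had 24.8 against 7.62 CPM and was 3.26-fold higher (counting interval 1.96 to 5.68), Gbp2 3.34-fold higher (counting interval 1.44 to 8.99) and Bst2 2.67-fold higher (counting interval 1.90 to 3.80). Irf1 was 2.22-fold higher (counting interval 1.26 to 4.11) and Parp9, the partner of Dtx3l, 2.15-fold higher (counting interval 1.25 to 3.83). The other 26 members were under 5 CPM on both sides, a filter that keeps members through their higher library, and the median of all 41 was 0.07 against 0.44 over the 15. In the same comparison 4 of the 9 fibroblast markers were lower and 0 higher, and the ESC markers summed to 2628 CPM with Oct4 against 645 with DR.

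With c-JunDN against DR in KSM, 3 of 16 measured were higher and 0 lower, where 1.69% of all genes were higher and 1.75% lower. They were Tlr3 (3.02-fold higher (counting interval 1.08 to 10.4)), Ddx58 (2.34-fold higher (counting interval 1.36 to 4.19)) and Lgals3bp (2.26-fold higher (counting interval 1.17 to 4.66)), and the median was 0.43 over the 16 and 0.42 over all 41. With Jdp2, 2 of 18 were higher and 0 lower, where 3.13% of all genes were higher and 1.34% lower, with medians of 0.39 and 0.18. They were Xaf1, with 25 against 2 counts (11.6-fold higher (counting interval 2.88 to 101)), and Tlr3 (2.96-fold higher (counting interval 1.04 to 10.3)), and Ddx58 was the third in size at 0.94. Tlr3 in both comparisons and Xaf1 with Jdp2 passed the 5 CPM filter only through the library with the added factor. Without the filter, 7 of the 41 were higher and 1 lower with c-JunDN, and 3 higher and 1 lower with Jdp2. For Oct4 in KSM the counts without it were 8 higher and 1 lower. All 3 comparisons share the KSM DR library. Isg15 stayed between 0.802 and 1.68 CPM in the 4 KSM libraries, Irf7 between 0.303 and 1.20, and Ifit1 between 0 and 0.371. For Jdp2 the summed level was 441 CPM in KSM against 8260 CPM in MEF without KSM, where Jdp2 itself was also higher (7740 against 403 CPM).

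In ESC, induced c-Jun went with higher levels of part of the list. With doxycycline against without, 15 of 26 measured members were higher and 0 lower, where 21.3% of all genes were higher and 19.7% lower. The median was 1.23, the same with the 6 members at 0 counts without doxycycline set at their bound, and 1.22 over all 41, against -0.09 over all genes. The 5 CPM filter keeps members through their higher library, such as the 6 at 0 counts without doxycycline. Without that filter, 22 of the 41 were higher and 1 was lower. The lower one was Herc6, with 10 counts without doxycycline and 0 with it. Cell type markers moved in the same comparison. All 8 ESC markers were lower with doxycycline (median -2.76), their sum going from 7126 to 1334 CPM. The fibroblast markers summed to 27.7 CPM without and 561 with doxycycline, of which 508 CPM were Col1a1, and 3 of 5 measured were higher. Their part in the member levels was not tested. Usp18 had 1.36 CPM in WT ESC, 0 without doxycycline and 53.4 with it, at least 36.0-fold higher. Gbp2 had 0.582, 0 and 38.0 CPM, at least 25.7-fold higher. Irf7 had 2.13, 0 and 9.14 CPM, at least 6.17-fold higher.

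By role, the ESC response was uneven. Of the sensors only Ddx58 was measured, at 21.5 CPM in WT ESC, 50.9 without doxycycline and 41.3 with it, a log2 change of -0.29. Of the enzymes, Oas3 (1.04) and Eif2ak2 (3.33-fold higher (counting interval 2.57 to 4.36)) were called, and of the transducers Usp18, Irf7 and Irf9 (1.85). The 10 effectors called included Bst2 (4.18-fold higher (counting interval 2.89 to 6.21)) and Rsad2, which encodes viperin (at least 4.69-fold higher). The effectors that moved most in MEF did not lead here. Isg15 had 0.494 CPM without and 2.93 with doxycycline, Ifit1 0.494 and 4.02, and Ifit3 0 and 1.83, all under the 5 CPM limit. Irf1 had 48.9 CPM without and 26 with doxycycline and was not called.

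**Figure D5:**
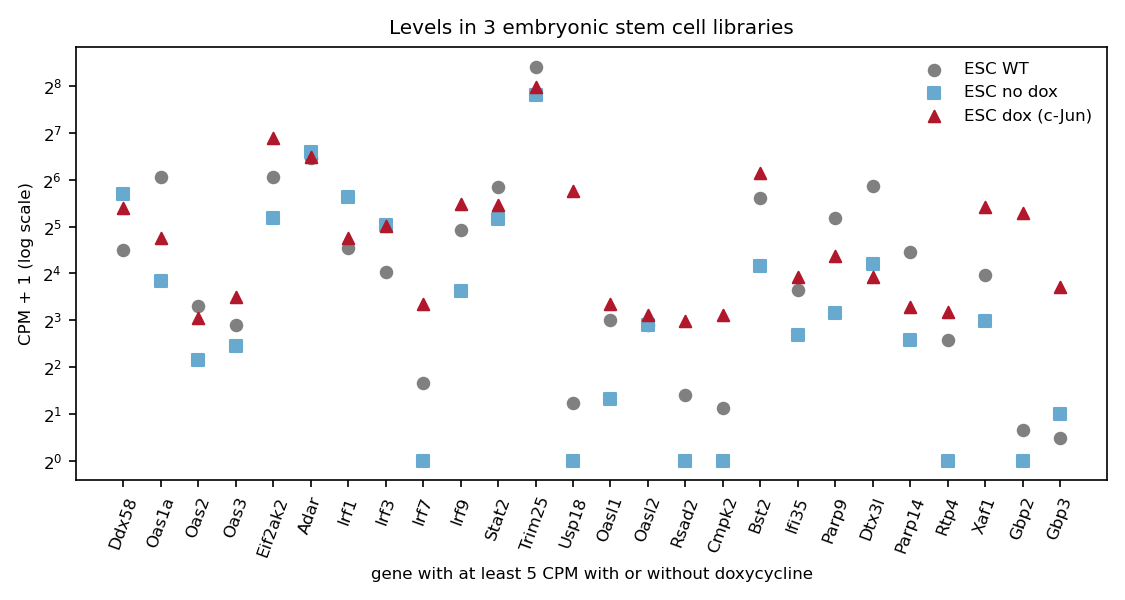
Level (CPM + 1, log scale) of the 26 members with at least 5 CPM with or without doxycycline, in WT ESC (circles), the TetOn line without doxycycline (squares) and with it (triangles). Usp18, Gbp2 and Gbp3 lie far above both other libraries with doxycycline, while for Oas1a, Parp9, Dtx3l and Parp14 the WT ESC value is the highest of the 3.

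The uninduced line itself differed from WT ESC. It had 9 of 20 measured members lower and 2 higher, where 18.3% of all genes were lower and 6.34% higher, at a median of -0.96 against -0.18 over all genes. Lgals3bp was 28.5-fold lower (counting interval 5.03 to 1132), from 1 count, Oas1a 4.95-fold lower (counting interval 3.37 to 7.57) and Parp9 4.50-fold lower (counting interval 2.73 to 7.96). Ddx58 (2.36-fold higher (counting interval 1.85 to 3.00)) and Irf1 (2.20-fold higher (counting interval 1.72 to 2.80)) were the 2 higher. The fibroblast markers summed to 1312 CPM in WT ESC and 27.7 CPM in the uninduced line, and their part was not tested. With WT ESC as the control, 7 of 27 members were higher and 4 lower with doxycycline, where 14.6% of all genes were higher and 23.1% lower, at a median of 0.54. Gbp2 (65.4-fold higher (counting interval 29.0 to 182)), Usp18 (39.3-fold higher (counting interval 22.7 to 73.7)) and Gbp3 (31.1-fold higher (counting interval 11.1 to 121)) led, and the 4 lower were Dtx3l (-1.95), Lgals3bp (-1.94), Oas1a (-1.31) and Parp14 (-1.17).

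Other genes of the pathway were also called in induced ESC. With doxycycline, 3 of 5 receptors, 4 of 7 adapters and 4 of 6 inhibitors were higher, with 0 lower in each, where 21.3% of all genes were higher and 19.7% lower. Il10rb had 0 CPM without and 22.3 with doxycycline, and Socs1 1.98 and 62.2. Of the other interferon-stimulated genes 5 of 13 were higher and 3 lower, at a median of 0.58, the share lower being near that over all genes. Tdrd7 was highest of these (0.494 to 93.6 CPM), and Apobec3, an antiviral cytidine deaminase, fell from 136 to 20.5 CPM. The macrophage markers summed to 12.9 CPM without doxycycline and 124 with it. Of that, 80.5 CPM were Csf1r and 39.1 were Cd68, while Ptprc, Emr1, C1qa, C1qb, C1qc, Lyz2, Tyrobp and Aif1 were at 0 with doxycycline.

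WT MEF and WT ESC differed gene by gene. Of 27 measured members, 9 were higher and 9 lower in WT MEF, where 23.9% of all genes were higher and 30.2% lower, at a median of -0.35 against -0.22 over all genes. With total-count scaling the 2 medians moved to -0.85 and -0.53. Gbp2 was 25.7-fold higher (counting interval 11.6 to 70.8) in WT MEF and Ifit2 15.0-fold higher (counting interval 9.27 to 26.1). Oas1a was 40.6-fold lower (counting interval 27.3 to 63.2), and all 3 oligoadenylate synthetases were lower in WT MEF, while the 3 sensors measured, Ddx58, Ifih1 and Tlr3, were higher there.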

How the data were processed

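RNA of 13 libraries was sequenced from mouse ESC, MEF and MEF on day 3 of KSM reprogramming. The authors quantified genes with RSEM 1.1.21 on mm9, per the submitters' processing notes, and the deposited expected counts were rounded here to whole counts. Per the file headers and values, 12 deposited tables also give a transcript fraction that sums to 1, scaled here to TPM. The Oct4 MEF table, on Ensembl genes, gives the authors' TPM, used here, and FPKM, left aside. The deposited peak lists carry a score per peak and were not analysed here, since no mm9 annotation was used.

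The 12 tables share 20325 names. Of these, 17964 were found in the Oct4 MEF data by symbol and 1705 by synonym, 19669 in all, with 96.92% of its counts. Library sizes over the shared names were scaled with TMM in edgeR 4.0.16 (R 4.3.3), and values are CPM. Log2 changes use a pseudocount of 1 CPM. A gene was measured at 5 CPM or more in 1 of 2 libraries and called at 2-fold. Ratios carry exact conditional binomial 95% intervals, which cover counting error only, and a side with 0 counts was set at a floor of 3 counts. Motifs were searched with Python 3.11.15 in RefSeq promoters of GRCm38.p6, a build other than that of the counts. The ratio and call steps were tested on simulated data. No 2 libraries held identical values.

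The members, lists and comparisons were chosen with earlier results of these data known. Values in each MEF library are given for all sensors and transducers and, of the enzymes and effectors, for the 3 highest and 2 lowest changes from WT to DR MEF. Elsewhere the 3 members with the largest change and any against the majority are named. Other genes named with values, such as Irf7, Isg15, Ddx58 and Bst2 outside this rule, were picked after their values were seen. Of the pathway list, all ligands and the 2 largest changes per group are named, and 1 of its groups is not reported here. Mb21d1 and Phf11d, 2 names of that list, had no row in the tables used. Protein sequences were not used here. Alternatives were total-count and RLE scaling, TPM, other pseudocounts, filters, fold limits and controls.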

Additional observations from a re-analysis of the deposited data

Results flagged for a closer look

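With c-Jun, 15 members were called higher in induced against uninduced ESC and lower in c-Jun against DR MEF. Since 40 of the 41 were lower in that MEF comparison, these are all of the 15 called higher in ESC. The share of all genes with such opposite calls was not computed. The difference between the 2 changes, ESC minus MEF on the log2 scale, was not tested, with 1 library on each side. Among the transducers it was 10.63 for Usp18, 8.24 for Irf7 and 3.98 for Irf9. The enzymes Eif2ak2 and Oas3 differed by 3.21 and 2.23. Among the effectors Gbp2 differed by 9.02, Rtp4 by 7.66, Gbp3 by 6.99, Xaf1 by 6.87, Cmpk2 by 6.68, Rsad2 by 6.67, Bst2 by 6.25, Parp9 by 4.48, Ifi35 by 3.61 and Oasl1 by 3.41. The MEF side rests on the high levels with DR, and the ESC side on an uninduced line in which Usp18, Irf7, Gbp2, Rtp4, Cmpk2 and Rsad2 had 0 counts. Time after c-Jun is 36 h in ESC and is not given in MEF.

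With Oct4, 3 members were higher against DR on day 3 of KSM and lower against DR in MEF, again without a test or a share over all genes. The difference, KSM minus MEF, was 2.81 for Dtx3l, 2.45 for Irf1 and 2.15 for Parp9. In KSM their counts with DR were 19, 17 and 19.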

How the results depend on the processing

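Of 161 recomputed member counts, 113 stayed within 1.5 times the value reported and 48 moved further. Of 119 medians 111 kept, 7 moved and 1 turned sign, where a turn was counted only for reported medians of 2-fold or more. Smaller medians also changed sign without being counted so, such as c-JunDN against DR, from -0.06 to 2.93 with WT MEF as the control. For single genes, 534 of 545 values kept their side of the 2-fold limit, 5 lost it and 6 passed it. Of the genes reported at 2-fold or more, 0 turned sign, and changes of sign under 2-fold were not counted. With WT MEF as the control in place of DR, 10 members were lower with c-Jun, 0 lower with c-JunDN or Oct4 and 39 higher with Jdp2, and the Oct4 median became 1.54. With WT ESC as the control, 7 were higher with doxycycline. At 1.5-fold, 4 were lower with c-JunDN against DR, 14 lower in uninduced against WT ESC, and 5 and 6 higher in KSM with c-JunDN and Jdp2. At 4-fold, 6 were higher with Jdp2 against DR and 3 against c-JunDN, 8 lower with Oct4 against DR, 0 lower with c-JunDN, 0, 0 and 1 higher in KSM with Oct4, c-JunDN and Jdp2, 3 lower in uninduced against WT ESC, 5 higher in WT MEF against WT ESC and 7 lower in KSM DR against WT MEF. With the counting interval wholly past 2-fold the counts were 0 lower with c-JunDN, 12 higher with Jdp2 against DR and 16 against c-JunDN, 14 lower with Oct4, 0, 0 and 1 higher in KSM with Oct4, c-JunDN and Jdp2, and 8 lower in KSM DR against WT MEF. With no filter or 1 CPM, 8 were higher in KSM with Oct4, 7 with c-JunDN and 17 lower in uninduced against WT ESC. At 20 CPM, 2, 0 and 0 were higher in KSM with Oct4, c-JunDN and Jdp2, 6 with doxycycline, 3 in WT MEF against WT ESC, and 6 lower in KSM DR against WT MEF. A pseudocount of 5 gave 2, 0 and 1 higher in KSM with Oct4, c-JunDN and Jdp2, and one of 0.1 gave 4 with Jdp2. Total-count scaling gave 4 higher in KSM with Jdp2 and 8 lower in KSM DR against WT MEF. RLE factors gave 3 higher in KSM with Oct4, and TPM gave 3 with Oct4 and 1 with Jdp2. The cause of these moves was not tested beyond what each setting changes by construction. The shallow libraries limit what can be seen below about 1.61 CPM. No paired analysis was possible because each group holds 1 library, and leaving out a library would leave no comparison.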
